A study of Mus musculus with 38 samples.

Results

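Leukaemia inhibitory factor (LIF) keeps mouse embryonic stem cells undifferentiated in culture, and 10 genes of its signalling pathway are described here in E14 cells grown with or without inhibitors of the kinases MEK and GSK3. They are Osm, Lif, Lifr, Il6st, Jak1, Stat3, Socs1, Socs3, Pim1 and Gbx2, chosen by name as rows of the deposited RNA-seq table, and all 10 were found among its 25965 genes. E14 is a feeder-free male line of 129/Ola origin, and its cells were plated in serum medium before the media were changed. In 2i/L the cells were kept for 8 days in serum-free N2B27 with LIF, 1 µM of a MEK inhibitor (PD03259010 in the labels) and 3 µM of the GSK3 inhibitor CHIR99021 (3 libraries). In MEKi/L they had N2B27 with LIF and the MEK inhibitor alone for 8 days (3 libraries). In GSK3i/L they had N2B27 with LIF and CHIR99021 alone for 24 days (2 libraries) or 8 days (3 libraries). In S/L they had serum with LIF and no inhibitor for 8 days (3 libraries). LIF was thus added in all 5 groups, while S/L differs from the other media in serum and basal medium as well as in the inhibitors. All libraries come from 1 cell line, and the labels do not say whether the replicates were separate cultures, so p-values measure the spread between these libraries, which may be technical. The 24 bisulfite samples of the 38 in the series were not analysed here.

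LIF and oncostatin M (Osm) are secreted cytokines of the family that signals through gp130, the protein made by Il6st. LIF binds the receptor Lifr, which pairs with gp130, and kinases of the JAK family bound to this pair phosphorylate the transcription factor STAT3. STAT3 then switches on genes that include Socs3, Pim1 and, in mouse embryonic stem cells, Gbx2, Klf4 and Tfcp2l1. The SOCS proteins feed back on the receptor and its kinases and dampen the signal.

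The 250 bases before the transcript start were read from RefSeq's promoter sequences (build GRCm38.p6) for 9 of the 10 genes, in 11 windows; Osm was not matched. The palindromic STAT site TTCNNNGAA, which reads the same on both strands, stands in 7.02% of 32851 windows of that length and in 1 of these 11, that of Socs3. The Socs3 window is shown for that site, in capitals, 154 to 146 bases before the start (chr11:117969367-117969616, minus strand). The Lif window is shown because Lif and Osm are neighbours that differed between the media. It holds the AP-1 site TGANTCA, also the same on both strands, in capitals, 228 to 222 bases before the start (chr11:4257318-4257567, plus strand). This second motif was searched after the sequences had been seen, and it stands in 6.75% of all windows and in no other of these 11. A match is a run of letters and no measured binding.
Socs3: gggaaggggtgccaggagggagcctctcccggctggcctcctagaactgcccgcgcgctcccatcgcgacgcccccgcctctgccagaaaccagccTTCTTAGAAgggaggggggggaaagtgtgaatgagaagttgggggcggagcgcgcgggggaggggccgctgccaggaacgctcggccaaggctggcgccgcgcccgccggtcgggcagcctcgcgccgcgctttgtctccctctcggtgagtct
Lif: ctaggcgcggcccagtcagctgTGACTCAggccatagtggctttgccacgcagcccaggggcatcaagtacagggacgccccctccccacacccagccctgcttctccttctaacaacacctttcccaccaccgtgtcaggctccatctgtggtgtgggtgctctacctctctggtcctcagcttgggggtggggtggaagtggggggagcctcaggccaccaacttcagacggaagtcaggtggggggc
The deposited gene span of Socs3 begins 681 bases further upstream than the RefSeq start and that of Lif 11 bases further upstream. The Socs3 window and its STAT site thus lie wholly inside the deposited gene span (117966079 to 117970047). They stand before the start by the RefSeq start only.

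Values are log2 RPM, reads scaled to a common library total, given here on the linear scale, which is not corrected for gene length, so levels are compared between groups and never between genes. The 8 libraries of 2i/L, MEKi/L and 24-day GSK3i/L held 10550000 to 15760000 reads. The 6 libraries of 8-day GSK3i/L and S/L appear to have been matched to a shared distribution, which is read from their values and not stated in the labels. Their depth was approximated at 8080000 to 18410000 reads. Embryonic stem cell identity was checked with 7 markers, all of which passed the filter on low values, and their summed level was 3785 to 4852 RPM in every library. Single markers went both ways within that sum: in 2i/L against S/L 3 of the 7 were higher and 3 lower, with Esrrb at 797 ± 67.3 RPM in 2i/L against 267 ± 66.4 RPM in S/L and Dppa4 at 31.5 ± 3.54 RPM in 2i/L against 156 ± 9.59 RPM in S/L (SD, n = 3 each). A score of 27 long minus 30 short transcripts (log2 units), which moves with transcript length in a library, was 0.87 ± 0.08 in 2i/L, -0.62 ± 1.49 in MEKi/L, -3.22 ± 0.48 in 24-day GSK3i/L, -1.12 ± 1.72 in 8-day GSK3i/L and -2.60 ± 0.24 in S/L (mean ± SD). Replicate 1 of MEKi/L (1.08) and replicate 1 of 8-day GSK3i/L (0.73) stood apart from their own groups, whose other libraries scored -1.71 and -1.22 in MEKi/L and -1.45 and -2.65 in GSK3i/L. The 10 genes were therefore also fitted with this length score as a covariate, and those values stand beside the calls they bear on. Neighbouring and similar genes are given from the fit with group alone.

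Most genes of the LIF pathway were higher in 2i/L than in S/L, and fewer of them passed with either inhibitor alone. Osm, nearly silent in S/L, was higher in all inhibitor media, while Gbx2 ran the other way and was lowest in MEKi/L. Of the 10 genes, 8 were higher and 1 (Gbx2) was lower in 2i/L than in S/L at an adjusted p under 0.05 (limma over 14980 genes), where 63.6% of all genes tested passed (39.1% higher, 24.4% lower). In MEKi/L against S/L, 5 were higher and 1 lower, beside 40.8% of all genes tested (26.1% higher, 14.7% lower). In 8-day GSK3i/L against S/L, 4 were higher and none lower, beside 31.1% of all genes (16.8% higher, 14.4% lower). The median log2 difference of the 10 genes was 1.24 in 2i/L, 0.86 in MEKi/L and 0.35 in GSK3i/L against S/L, where the medians of all genes tested were 0.28, 0.17 and 0.06. All 3 comparisons share the S/L libraries. With so many genes passing, these counts do not by themselves set the pathway apart.

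**Figure D1:**
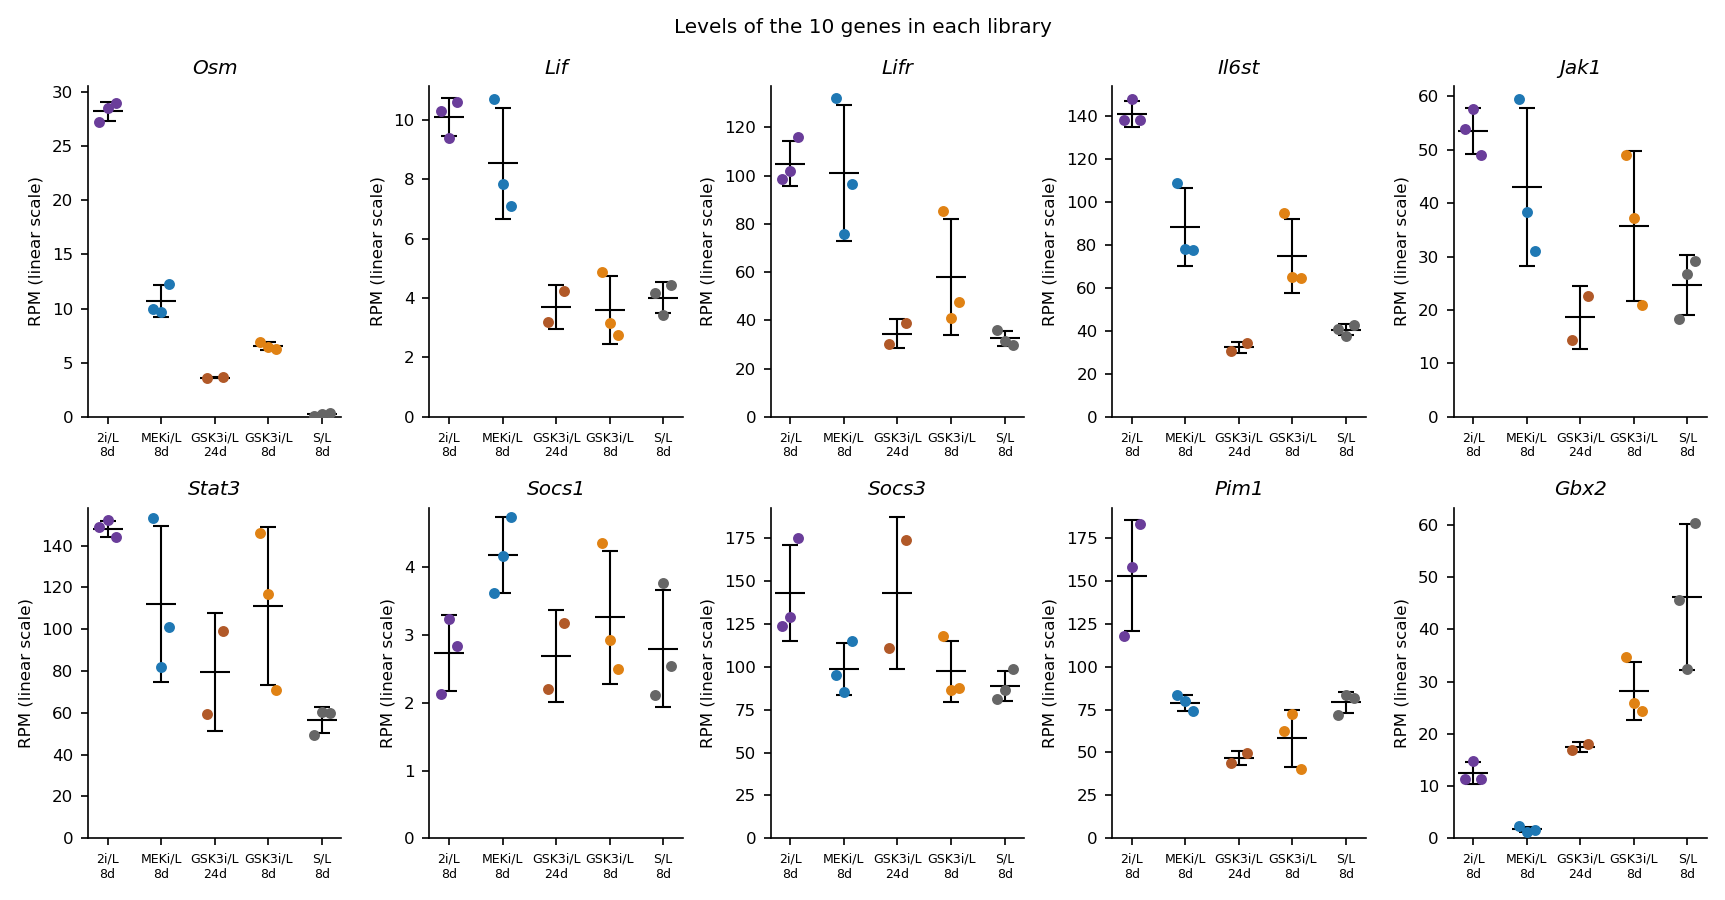
Level of each of the 10 genes (vertical axes, RPM on a linear scale from 0) in every library of 2i/L, MEKi/L, 24-day GSK3i/L, 8-day GSK3i/L and S/L. Points are libraries, long bars the mean and whiskers the SD. Osm averages 28.2 RPM in 2i/L and 0.243 RPM in S/L with no overlap of groups, while Gbx2 is lowest in MEKi/L at 1.71 RPM.

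Of the ligands, Osm differed most between the media. Osm had 27.2, 28.5 and 29.0 RPM in the 2i/L libraries, 9.96, 9.71 and 12.3 RPM in MEKi/L, 3.57 and 3.70 RPM in 24-day GSK3i/L, and 6.93, 6.41 and 6.24 RPM in 8-day GSK3i/L, against 0.0918, 0.306 and 0.331 RPM in S/L. No group overlapped any other, in the order 2i/L, MEKi/L, 8-day GSK3i/L, 24-day GSK3i/L, S/L. The S/L values stand for 1, 4 and 4 reads, 9 in all (95% Poisson interval 4.12 to 17.08), whereas the 2i/L libraries held 357, 360 and 438 reads. The ratio of means was 116 in 2i/L over S/L (61.1 to 254 from the counting error of the S/L reads alone), 44.0 in MEKi/L and 26.8 in 8-day GSK3i/L. Because low values in matched libraries need not equal reads over depth, the S/L level was also set from reads and approximate depth (0.327 RPM), which gave ratios of 86.3, 32.7 and 19.9 for 2i/L, MEKi/L and 8-day GSK3i/L. The S/L reads were counted as steps between distinct values, and the depth was taken from those same matched values. These ratios are thus not free of the matching, and the 8-day GSK3i/L level in them is itself a matched value. Osm is thus detected in S/L, at a level of few reads.

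On the log2 scale Osm was higher by 7.07 ± 0.37 in 2i/L (SE, adjusted p = 1.1e-08), by 5.66 ± 0.37 in MEKi/L (2.1e-07) and by 4.95 ± 0.37 in 8-day GSK3i/L (1.3e-06), each against S/L in limma. These calls held under every alternative tried. With the length score in the fit the Osm differences were 6.86, 5.54 and 4.86, so they hardly moved with it. On log2(RPM + 1) values, which press low levels together, the Osm difference between 2i/L and S/L was 4.56. Osm was also higher in 2i/L than in MEKi/L (1.41 ± 0.37, adjusted p = 0.024) and than in 8-day GSK3i/L (2.11 ± 0.37, adjusted p = 0.001), and by 1.32 (adjusted p = 0.038) and 1.99 (adjusted p = 0.0036) with the length score. The difference between MEKi/L and GSK3i/L did not pass (0.70 ± 0.37, adjusted p = 0.24), nor did that between 24 and 8 days of GSK3i/L (-0.84 ± 0.42, adjusted p = 0.15), though neither pair of groups overlapped. On the log2(RPM + 1) scale both passed (0.63, adjusted p = 0.012, and -0.70, adjusted p = 0.024). A paired fit of the 6 libraries of MEKi/L and 8-day GSK3i/L, with the replicate number as a block, was added after the data were seen. The pairing was read from these same libraries. In it the Osm difference between the 2 groups passed (0.70 ± 0.21, adjusted p = 0.03). It did not pass with the block over all 14 libraries (adjusted p = 0.22) or with that block and the length score (0.55, adjusted p = 0.16). The call between 2i/L and MEKi/L was lost when any 1 of 5 of their 6 libraries was left out (all but MEKi/L replicate 1), with differences of 1.35 to 1.52 and adjusted p of 0.054 to 0.085.

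Osm is best known as a product of macrophages and other blood cells, so their markers were read beside it. Of 10 listed markers 8 were found, 3 passed the filter, and Ptprc, Tyrobp and Lyz2 were at 0 in all 14 libraries. Summed levels were 38.1 to 44.0 RPM in 2i/L, 28.3 to 34.2 in MEKi/L, 21.4 to 28.7 in 24-day GSK3i/L, 21.6 to 33.5 in 8-day GSK3i/L and 16.8 to 25.5 in S/L. Nearly all of that sum was Cd68, a lysosomal protein, and Csf1r. Those 3 markers did not move together. Cd68 was higher than in S/L in all 3 media, at 27.3 ± 3.13 RPM in 2i/L, 21.5 ± 5.44 in MEKi/L and 14.8 ± 5.10 in 8-day GSK3i/L, against 8.79 ± 1.60 in S/L (SD, n = 3 each). Csf1r, a macrophage growth factor receptor, passed in none of them, at 13.9 ± 0.30 RPM in 2i/L, 9.41 ± 2.60 in MEKi/L and 10.6 ± 1.46 in 8-day GSK3i/L, against 11.6 ± 3.24 in S/L. Itgam, an integrin chain of myeloid cells, was lower in MEKi/L than in S/L (log2 difference -2.23 ± 0.63, adjusted p = 0.012) and did not pass in 2i/L (-1.49 ± 0.63, adjusted p = 0.051) or 8-day GSK3i/L (0.37 ± 0.63, adjusted p = 0.68).

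Lif, the founding ligand of the pathway, split the media in another way. Lif had 10.3, 9.41 and 10.6 RPM in 2i/L, 10.7, 7.84 and 7.11 RPM in MEKi/L, 3.19 and 4.23 RPM in 24-day GSK3i/L, and 4.88, 3.15 and 2.77 RPM in 8-day GSK3i/L, against 4.16, 3.44 and 4.46 RPM in S/L. Both media with the MEK inhibitor lay above every library without it, while GSK3i/L overlapped S/L. Lif was higher than in S/L by 1.34 ± 0.25 in 2i/L (adjusted p = 0.00047) and by 1.07 ± 0.25 in MEKi/L (adjusted p = 0.0043), on the log2 scale. In 8-day GSK3i/L the difference from S/L was -0.20 ± 0.25 (95% interval -0.74 to 0.35, adjusted p = 0.58). Against 8-day GSK3i/L, Lif was higher in 2i/L by 1.53 ± 0.25 (adjusted p = 0.00062) and in MEKi/L by 1.27 ± 0.25 (adjusted p = 0.0026), and both calls held under every alternative, at 1.08 and 1.15 with the length score. With the length score in the fit the differences from S/L were 0.55 in 2i/L (adjusted p = 0.23) and 0.62 in MEKi/L (adjusted p = 0.067), so those calls were lost. The transcript measured is the cells' own, since the LIF of the medium is added as protein.

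Osm and Lif lie 16530 bases apart on chromosome 11 (Osm 4236420 to 4241026, Lif 4257557 to 4272514, both on the plus strand, GRCm38). Within 100 kb of the pair 6 other genes were tested, and 2 predicted genes did not pass the filter. None of the 6 approached the Osm difference. Gatsl3, the nearest gene upstream of Osm, was higher in 2i/L (0.82 ± 0.19, adjusted p = 0.0022) and in MEKi/L (1.24 ± 0.19, adjusted p = 0.00021) than in S/L, and did not pass in GSK3i/L (0.39 ± 0.19, adjusted p = 0.13). Hormad2, a meiotic chromosome axis protein gene downstream of Lif, was higher by 1.17 ± 0.34 in 2i/L (adjusted p = 0.0087) and by 2.61 ± 0.34 in MEKi/L (adjusted p = 5.4e-05) than in S/L. Unlike Osm, Hormad2 was lower in 2i/L than in MEKi/L (log2 difference -1.44 ± 0.34, adjusted p = 0.014). Of the rest, Ccdc157 was higher than in S/L in all 3 media (0.98 in 2i/L, 0.76 in MEKi/L and 0.70 in GSK3i/L), Sf3a1 (0.77) and Tbc1d10a (0.49) were higher in 2i/L, and Rnf215 passed in none.

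**Figure D2:**
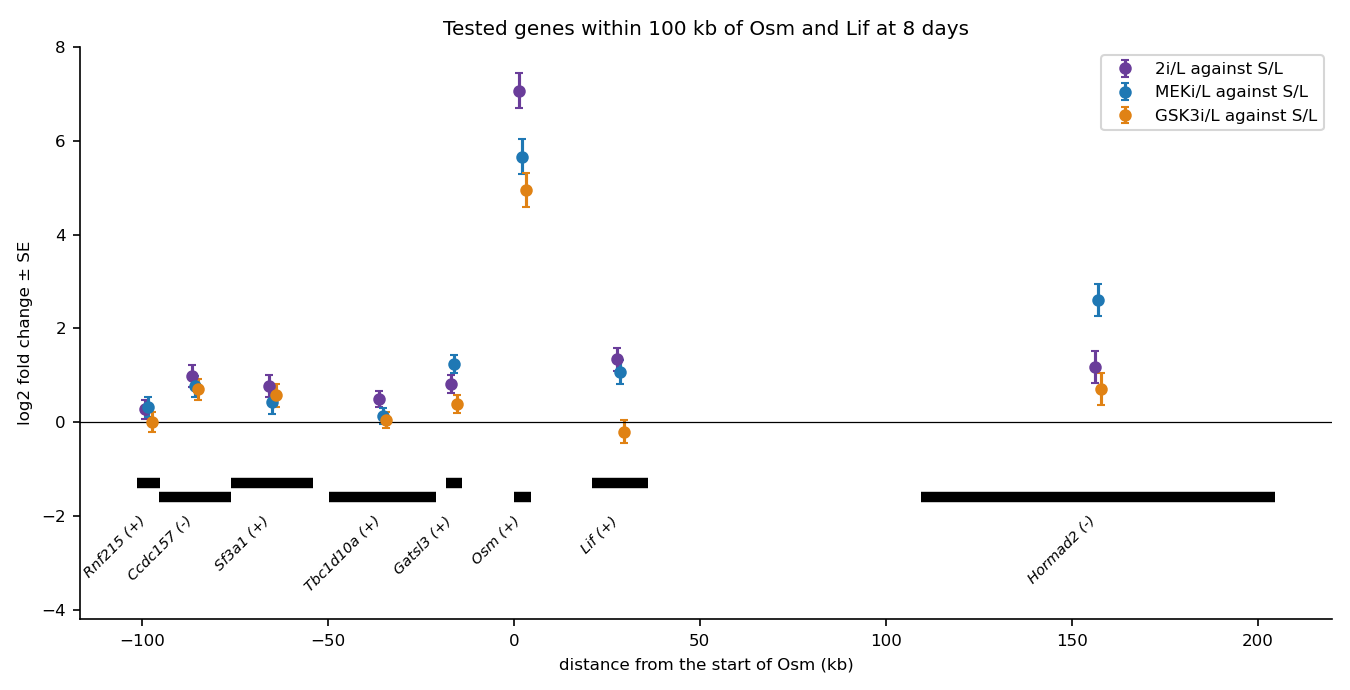
Log2 fold change against S/L (vertical axis, points with SE) of the tested genes within 100 kb of Osm and Lif, placed by the distance of the gene's middle from the start of Osm (horizontal axis, kb), for 2i/L, MEKi/L and 8-day GSK3i/L. Black bars are the gene spans, on 2 levels for legibility. Osm stands at 7.07, 5.66 and 4.95 in 2i/L, MEKi/L and GSK3i/L, and the next value, of Hormad2 in MEKi/L, is 2.61.

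Both receptor genes were higher in all inhibitor media at 8 days than in S/L. Lifr, the LIF-binding chain, had 98.5, 102 and 116 RPM in 2i/L, 132, 76.0 and 96.5 RPM in MEKi/L, 30.2 and 38.7 RPM in 24-day GSK3i/L, and 85.4, 41.0 and 47.5 RPM in 8-day GSK3i/L, against 36.0, 31.6 and 29.9 RPM in S/L. Every 8-day library with an inhibitor exceeded all S/L libraries, and 24 days of GSK3i/L overlapped S/L. Lifr differed from S/L by 1.70 ± 0.25 in 2i/L (adjusted p = 8e-05), 1.61 ± 0.25 in MEKi/L (0.00025) and 0.76 ± 0.25 in 8-day GSK3i/L (0.036, log2 scale, limma). The first 2 calls held under every alternative, with 0.77 (adjusted p = 0.021) and 1.08 (adjusted p = 0.00021) when the length score was in the fit. The GSK3i/L call was lost in 8 of 15 alternatives. It fell to 0.37 (adjusted p = 0.10) with the length score, and it was lost without GSK3i/L replicate 1 (0.45, adjusted p = 0.16) and without any 1 of the S/L libraries (0.70 to 0.84, adjusted p = 0.062 to 0.098). Lifr was higher in 2i/L (0.94 ± 0.25, adjusted p = 0.015) and MEKi/L (0.85 ± 0.25, adjusted p = 0.032) than in 8-day GSK3i/L, and 2i/L did not pass against MEKi/L (0.09, 95% interval -0.46 to 0.63). The call of 2i/L over GSK3i/L was lost with the length score (0.40, adjusted p = 0.13), with median centring (0.63, adjusted p = 0.069), and without 2i/L replicate 3 (0.87, adjusted p = 0.058) or GSK3i/L replicate 2 (0.72, adjusted p = 0.068). That of MEKi/L over GSK3i/L was kept with the length score (0.71, adjusted p = 0.0014) and lost with median centring (0.67, adjusted p = 0.068), when only these 2 groups were fitted with no block (adjusted p = 0.16), with no variance trend (adjusted p = 0.054), and without MEKi/L replicate 1 or 3 or GSK3i/L replicate 2 or 3 (0.64 to 0.86, adjusted p = 0.077 to 0.14).

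Il6st, which makes the shared signalling chain gp130, followed a graded order. Il6st had 138, 148 and 138 RPM in 2i/L, 109, 77.9 and 77.6 RPM in MEKi/L, 30.5 and 34.2 RPM in 24-day GSK3i/L, and 94.8, 65.1 and 64.8 RPM in 8-day GSK3i/L, against 40.7, 37.7 and 42.9 RPM in S/L. The order was 2i/L, MEKi/L, 8-day GSK3i/L, S/L and 24-day GSK3i/L, and of these neighbours only MEKi/L and 8-day GSK3i/L overlapped. Against S/L the log2 difference was 1.81 ± 0.18 in 2i/L (adjusted p = 2.5e-06), 1.11 ± 0.18 in MEKi/L (adjusted p = 0.00032) and 0.87 ± 0.18 in 8-day GSK3i/L (adjusted p = 0.0031). All 3 held under every alternative, at 1.18, 0.75 and 0.60 with the length score in the fit. Il6st was also higher in 2i/L than in MEKi/L (0.70 ± 0.18, adjusted p = 0.021) and 8-day GSK3i/L (0.94 ± 0.18, adjusted p = 0.0018), by 0.43 (adjusted p = 0.02) and 0.58 (adjusted p = 0.0032) with the length score. The call of 2i/L over MEKi/L was lost in 5 of the 6 fits that left out a library, without any 1 of the 2i/L libraries or without MEKi/L replicate 2 or 3 (0.62 to 0.72, adjusted p = 0.057 to 0.098). Bulk RNA cannot separate fewer cells with a transcript from less of it per cell, here and for the other genes.

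Between 24 and 8 days of GSK3i/L, Il6st was the 1 gene of the 10 that passed, and it was lower at 24 days (-1.19 ± 0.20, adjusted p = 0.0033), where 17.5% of all genes tested passed (4.3% higher, 13.2% lower). Lifr (-0.68 ± 0.28, adjusted p = 0.098) and Jak1 (-0.89 ± 0.35, adjusted p = 0.082) did not pass. Without 8-day GSK3i/L replicate 3, however, Jak1 (-1.24, adjusted p = 0.0085), Stat3 (-0.77, from -0.47, adjusted p = 0.041) and Pim1 (-0.53, from -0.28, adjusted p = 0.048) passed too. In that fit 5885 of the 14980 genes tested passed (2185 higher, 3700 lower), against 2616 in the main fit. The added calls thus came with a rise in calls over all genes and do not set the pathway apart. The Il6st difference was -0.81 (adjusted p = 0.0037) with the length score in the fit, and the call was lost when only these 5 libraries were fitted (adjusted p = 0.11). Fibroblast and mesenchymal markers moved with this contrast: 9 of 10 passed the filter, their summed level was 6.91 to 8.01 RPM at 24 days and 107 to 251 RPM at 8 days, and 6 of 10 were at 0 at 24 days and 0 of 10 at 8 days. The sum at 8 days of GSK3i/L was led by the collagen genes Col3a1 (86.7 ± 36.6 RPM) and Col1a1 (56.7 ± 27.9 RPM, SD, n = 3), and in 2i/L, MEKi/L and S/L it was 6.44 to 17.0 RPM. Its part in the levels of Il6st and Lifr was not tested.

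The kinase and the transcription factor that carry the signal inside the cell, Jak1 and Stat3, were higher in 2i/L than in S/L, but the single inhibitors were less clear. Jak1 had 53.9, 57.6 and 49.0 RPM in 2i/L, 59.6, 38.4 and 31.0 RPM in MEKi/L, 14.4 and 22.7 RPM in 24-day GSK3i/L, and 49.0, 37.2 and 20.9 RPM in 8-day GSK3i/L, against 18.3, 26.7 and 29.1 RPM in S/L. All 2i/L and MEKi/L libraries lay above S/L, with wide spreads in both single-inhibitor media at 8 days. Jak1 was higher by 1.14 ± 0.31 in 2i/L (adjusted p = 0.0058). It did not pass in MEKi/L (0.77 ± 0.31, adjusted p = 0.06) or 8-day GSK3i/L (0.47 ± 0.31, adjusted p = 0.25). Without MEKi/L replicate 3 it passed in MEKi/L (0.98, adjusted p = 0.039), and without GSK3i/L replicate 3 in GSK3i/L (0.82, adjusted p = 0.029). With the length score in the fit all 3 differences were near 0, at -0.05 in 2i/L (adjusted p = 0.92), 0.09 in MEKi/L and -0.03 in GSK3i/L.

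Stat3 had 149, 152 and 144 RPM in 2i/L, 153, 81.7 and 101 RPM in MEKi/L, 59.4 and 99.2 RPM in 24-day GSK3i/L, and 146, 117 and 71.0 RPM in 8-day GSK3i/L, against 49.6, 60.2 and 60.1 RPM in S/L. All 8-day libraries with an inhibitor exceeded S/L, and replicate 1 was the highest in both single-inhibitor media, as it was in the length score. Stat3 was higher than in S/L by 1.39 ± 0.28 in 2i/L (adjusted p = 7e-04), 0.94 ± 0.28 in MEKi/L (0.016) and 0.92 ± 0.28 in 8-day GSK3i/L (0.023, log2 scale, limma). With the length score in the fit these were 0.30 (adjusted p = 0.33), 0.31 (adjusted p = 0.16) and 0.45 (adjusted p = 0.032), so the calls in 2i/L and MEKi/L were lost. The MEKi/L call was also lost without MEKi/L replicate 1 (0.69, adjusted p = 0.077) or S/L replicate 1 (0.85, adjusted p = 0.061). That in GSK3i/L was lost without GSK3i/L replicate 1 or 2 or S/L replicate 1 (0.69 to 0.85, adjusted p = 0.075 to 0.097). Whether transcript length or RNA quality had a part in the Jak1 and Stat3 levels cannot be told apart from the media in 2i/L and S/L, whose libraries do not overlap in that score.

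**Figure D3:**
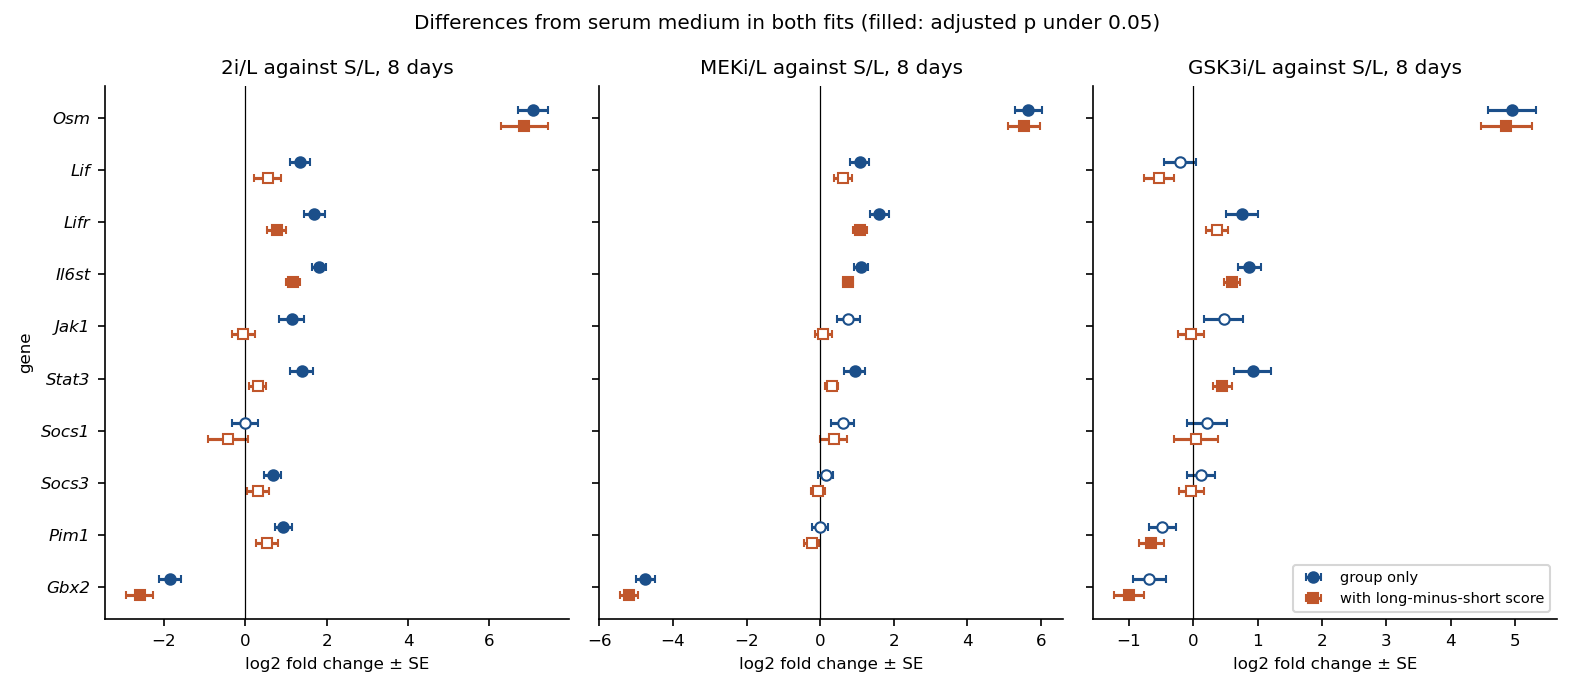
Log2 fold change with SE (horizontal axes) of the 10 genes against S/L in 2i/L, MEKi/L and 8-day GSK3i/L, each panel on its own scale. Circles are the fit with group alone and squares the fit that also holds the length score, and filled symbols have an adjusted p under 0.05. In 2i/L, Osm, Lifr, Il6st and Gbx2 stay filled in both fits, while Jak1 goes to -0.05 with the score.

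Of the feedback inhibitors, Socs3 passed in 1 comparison and Socs1 in none. Socs1 had 2.13, 3.24 and 2.84 RPM in 2i/L, 3.62, 4.17 and 4.74 RPM in MEKi/L, 2.20 and 3.17 RPM in 24-day GSK3i/L, and 4.36, 2.93 and 2.50 RPM in 8-day GSK3i/L, against 2.11, 3.77 and 2.54 RPM in S/L. Socs1 passed in 0 of 7 comparisons (limma, and in 0 at an unadjusted p under 0.05), and only in that of 2i/L with MEKi/L did the groups not overlap (-0.62 ± 0.31, adjusted p = 0.18). Its level is read from 28 to 58 reads in the plain libraries, and the 95% interval of the difference between 2i/L and S/L runs from -0.67 to 0.64. Socs3, the main brake on gp130 signalling, had 124, 129 and 175 RPM in 2i/L, 95.4, 85.6 and 115 RPM in MEKi/L, 111 and 174 RPM in 24-day GSK3i/L, and 118, 86.4 and 87.6 RPM in 8-day GSK3i/L, against 81.3, 86.6 and 98.5 RPM in S/L. The 2i/L libraries all lay above those of MEKi/L, 8-day GSK3i/L and S/L. Socs3 was higher in 2i/L than in S/L (0.67 ± 0.21, adjusted p = 0.012), and the call was lost without 2i/L replicate 3 (0.52, adjusted p = 0.067), with the length score (0.31, adjusted p = 0.42), and under quantile normalization (0.50, adjusted p = 0.053) or median centring (0.36, adjusted p = 0.13). In MEKi/L (0.15 ± 0.21, adjusted p = 0.60) and 8-day GSK3i/L (0.12 ± 0.21, adjusted p = 0.68) it did not pass against S/L, and the sign in MEKi/L turned under median centring (-0.03). The differences of 2i/L from MEKi/L (0.53 ± 0.21, adjusted p = 0.11) and from 8-day GSK3i/L (0.55 ± 0.21, adjusted p = 0.063) did not pass either. In the main fit Socs3, the gene with the STAT site shown above, is thus not shown to differ between 2i/L and the single inhibitors. The difference from 8-day GSK3i/L did pass with no filter (0.55, adjusted p = 0.04) and with the replicate block (0.55, adjusted p = 0.045). It also passed without GSK3i/L replicate 1 (0.70, adjusted p = 0.023) and without replicate 1 of both MEKi/L and GSK3i/L (0.70, adjusted p = 0.017).

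Pim1, a serine/threonine kinase gene and STAT3 target, was highest in 2i/L. Pim1 had 118, 158 and 183 RPM in 2i/L, 83.3, 79.7 and 74.1 RPM in MEKi/L, 43.7 and 49.7 RPM in 24-day GSK3i/L, and 62.5, 72.2 and 40.1 RPM in 8-day GSK3i/L, against 71.9, 83.6 and 81.9 RPM in S/L. The 2i/L libraries lay above all others, and MEKi/L and S/L overlapped. Pim1 was higher in 2i/L than in S/L (0.93 ± 0.21, adjusted p = 0.0018), MEKi/L (0.93 ± 0.21, adjusted p = 0.011) and 8-day GSK3i/L (1.41 ± 0.21, adjusted p = 0.0003). The last of these held under every alternative. The call against S/L was lost with the length score (0.53, adjusted p = 0.16), and that against MEKi/L without 2i/L replicate 3 (0.79, adjusted p = 0.06). Against S/L, MEKi/L gave 0.00 ± 0.21 (95% interval -0.45 to 0.45), and 8-day GSK3i/L gave -0.48 ± 0.21 (adjusted p = 0.095), which passed with the length score in the fit (-0.65, adjusted p = 0.015).

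Gbx2, a homeobox gene that is a STAT3 target in these cells, was the 1 gene of the 10 with its highest level in S/L. Gbx2 had 11.3, 14.9 and 11.4 RPM in 2i/L, 2.28, 1.22 and 1.61 RPM in MEKi/L, 16.9 and 18.1 RPM in 24-day GSK3i/L, and 34.7, 26.0 and 24.3 RPM in 8-day GSK3i/L, against 45.7, 32.5 and 60.4 RPM in S/L. The MEKi/L libraries, at 36, 17 and 17 reads, lay far below all others, and among neighbours in the order only S/L and 8-day GSK3i/L overlapped. Gbx2 was lower than in S/L in MEKi/L (log2 difference -4.76 ± 0.26, adjusted p = 5.5e-08, a fitted level 27.1-fold lower) and in 2i/L (-1.85 ± 0.26, adjusted p = 5.2e-05); these differences were -5.19 in MEKi/L and -2.60 in 2i/L with the length score. It was 7.51-fold higher in 2i/L than in MEKi/L (2.91 ± 0.26, adjusted p = 1.3e-05), lower in 2i/L than in 8-day GSK3i/L (-1.17 ± 0.26, adjusted p = 0.0051), and lower in MEKi/L than in GSK3i/L (-4.08 ± 0.26, adjusted p = 2.5e-07). These 5 calls held under every alternative. In 8-day GSK3i/L against S/L, Gbx2 did not pass (-0.68 ± 0.26, adjusted p = 0.063). It did pass with the length score (-1.0, adjusted p = 0.0036), on log2(RPM + 1) values (-0.66, adjusted p = 0.041), without S/L replicate 2 (-0.91, adjusted p = 0.031), and without MEKi/L replicate 1 and GSK3i/L replicate 1 together (-0.83, adjusted p = 0.025). The summed level of primitive endoderm markers, a lineage that can arise in these cultures, came to 12.0 to 13.8 RPM in 2i/L, 95.5 to 204 RPM in MEKi/L, 29.1 to 75.3 RPM in 24-day GSK3i/L, 29.2 to 83.7 RPM in 8-day GSK3i/L and 27.1 to 36.1 RPM in S/L, with 7 of 8 past the filter and 0 of 8 at 0 in every library of a group. The MEKi/L sum was nearly all Col4a1, a basement membrane collagen gene, at 126 ± 61.0 RPM in MEKi/L against 21.6 ± 2.63 RPM in S/L (SD, n = 3 each). Of the 7 tested, Col4a1 (2.44) and Sox7 (2.63) were higher in MEKi/L than in S/L, and the other 5 did not pass. Sox7 averaged 0.685 ± 0.175 RPM in MEKi/L against 0.112 ± 0.037 RPM in S/L, so its difference rests on few S/L reads. The 5 were Gata6 (-1.74 ± 0.67, adjusted p = 0.051), Gata4 (0.85 ± 0.52, adjusted p = 0.20), Sox17 (-0.43 ± 0.68, adjusted p = 0.63), Pdgfra and Dab2. The part of these markers in the Gbx2 level was not tested.

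Between the inhibitor media, 4 of the 10 genes (Osm, Il6st, Pim1 and Gbx2) were higher in 2i/L than in MEKi/L and none lower, beside 12.9% of all genes tested (6.81% higher, 6.11% lower). Both of these groups are plain RPM columns. In 2i/L against 8-day GSK3i/L 5 were higher (Osm, Lif, Lifr, Il6st and Pim1) and 1 lower (Gbx2), beside 27.8% (19.8% higher, 8.02% lower). In MEKi/L against 8-day GSK3i/L 2 were higher (Lif and Lifr) and 1 lower (Gbx2), beside 17.8% (12.2% higher, 5.65% lower). The median log2 difference of the 10 genes was 0.49, 0.80 and 0.34 in these 3 comparisons, where the medians of all genes were 0.07, 0.18 and 0.09. Over all 7 comparisons the 10 genes had 33 calls, of which 18 were kept under every alternative and 15 were lost under at least 1. How many calls of all genes were kept in this way was not counted. With the length score in the fit, 3 genes (Osm, Lifr and Il6st) stayed higher in 2i/L than in S/L, against 8 without it. Of all genes tested, 17.9% were higher with the score and 39.1% without it, so fewer calls with the score are not particular to the 10 genes.

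The wider pathway was read from a list of 58 other genes, 52 of which were tested. In 2i/L against S/L 28 were higher and 8 lower, 69.2% of those tested beside 63.6% of all genes. In MEKi/L 22 were higher and 8 lower (57.7% beside 40.8%), and in 8-day GSK3i/L 15 and 7 (42.3% beside 31.1%). Their median log2 differences were 0.61, 0.42 and 0.30, beside 0.28, 0.17 and 0.06 over all genes. In the fit with the length score 34.6%, 44.2% and 48.1% passed in 2i/L, MEKi/L and GSK3i/L, beside 29.3%, 32.7% and 30.3% of all genes, and the medians were 0.12, 0.06 and 0.01. Of 9 other JAK kinases and STATs, 8 were higher in 2i/L, 7 in MEKi/L and 6 in GSK3i/L than in S/L, beside 39.1%, 26.1% and 16.8% of all genes, and none passed as lower. Of the 9, 4 in 2i/L, 4 in MEKi/L and 5 in GSK3i/L were higher with the length score in the fit, beside 17.9%, 20.2% and 15.1% of all genes. The values named next are from the fit with group alone. Jak3, a kinase of cytokine receptors, averaged 120 ± 22.6 RPM in 2i/L, 79.4 ± 20.9 in MEKi/L and 72.1 ± 25.1 in 8-day GSK3i/L, against 21.6 ± 3.14 in S/L (SD, n = 3 each), which gave log2 differences of 2.47, 1.85 and 1.70. Jak2, another kinase that binds gp130, was higher by 2.08, 1.30 and 1.42. Stat5a was higher by 2.92, 2.44 and 3.07, at 11.0 ± 2.41, 8.31 ± 3.94 and 13.0 ± 5.54 RPM in 2i/L, MEKi/L and 8-day GSK3i/L, against 1.47 ± 0.43 RPM in S/L. Its near-identical neighbour Stat5b was higher by 1.49, 1.42 and 1.46, and how reads shared by the pair were counted is not given in the sources used here. Stat2, a partner in interferon signalling, was higher by 1.89, 1.52 and 1.30.

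Among the other receptors of the family, Il6ra and Cntfr went opposite ways. Il6ra, the receptor of interleukin 6, had 17.7 ± 3.45 RPM in 2i/L, 6.08 ± 1.90 in MEKi/L, 2.80 ± 0.52 in 24-day GSK3i/L (n = 2) and 4.41 ± 1.94 in 8-day GSK3i/L, against 0.41 ± 0.09 in S/L (SD, n = 3 unless given). It was higher than in S/L by 5.43 ± 0.35 in 2i/L (adjusted p = 6e-08), 3.86 ± 0.35 in MEKi/L (2.6e-06) and 3.33 ± 0.35 in 8-day GSK3i/L (1.6e-05, log2 scale, limma), and higher in 2i/L than in MEKi/L by 1.57. The S/L libraries held 0.344 to 0.517 RPM of Il6ra, so its differences from S/L rest on few S/L reads. The order of its 8-day means is that of Osm, with 2i/L first and S/L last. Cntfr, the receptor of ciliary neurotrophic factor, had 0.50 ± 0.26 RPM in 2i/L, 0.90 ± 0.35 in MEKi/L and 2.39 ± 0.91 in 8-day GSK3i/L, against 9.70 ± 3.46 in S/L. Its log2 differences from S/L were -4.33 ± 0.46, -3.43 ± 0.46 and -2.01 ± 0.46, and all 3 passed. The 2i/L libraries held only 0.305 to 0.793 RPM of Cntfr. Of the 6 listed receptors 5 were tested, with 2 higher and 2 lower in 2i/L and in MEKi/L, and 1 higher and 1 lower in GSK3i/L. That is 80%, 80% and 40%, beside 63.6%, 40.8% and 31.1% of all genes. With the length score in the fit 1 receptor was higher and 1 lower in 2i/L, 2 and 1 in MEKi/L, and 1 and 1 in GSK3i/L. Those are 40%, 60% and 40%, beside 29.3%, 32.7% and 30.3% of all genes. The receptor counts are too small to read against these shares. Among the cytokines Ebi3, a subunit of interleukins 27 and 35, was higher in all 3 media (2.15, 3.42 and 1.92 in 2i/L, MEKi/L and GSK3i/L). Its levels were low, at 1.22 ± 0.21, 3.05 ± 1.22 and 1.05 ± 0.29 RPM in these media, against 0.29 ± 0.12 in S/L (SD, n = 3 each). The fold changes thus rest on few S/L reads. Of 9 other cytokines 5 were tested, and in 2i/L 1 was higher and 2 lower, 60% of those tested beside 63.6% of all genes. With the length score in the fit 0 were higher and 1 lower in 2i/L (20% beside 29.3%), so the Ebi3 call there was lost.

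**Figure D4:**
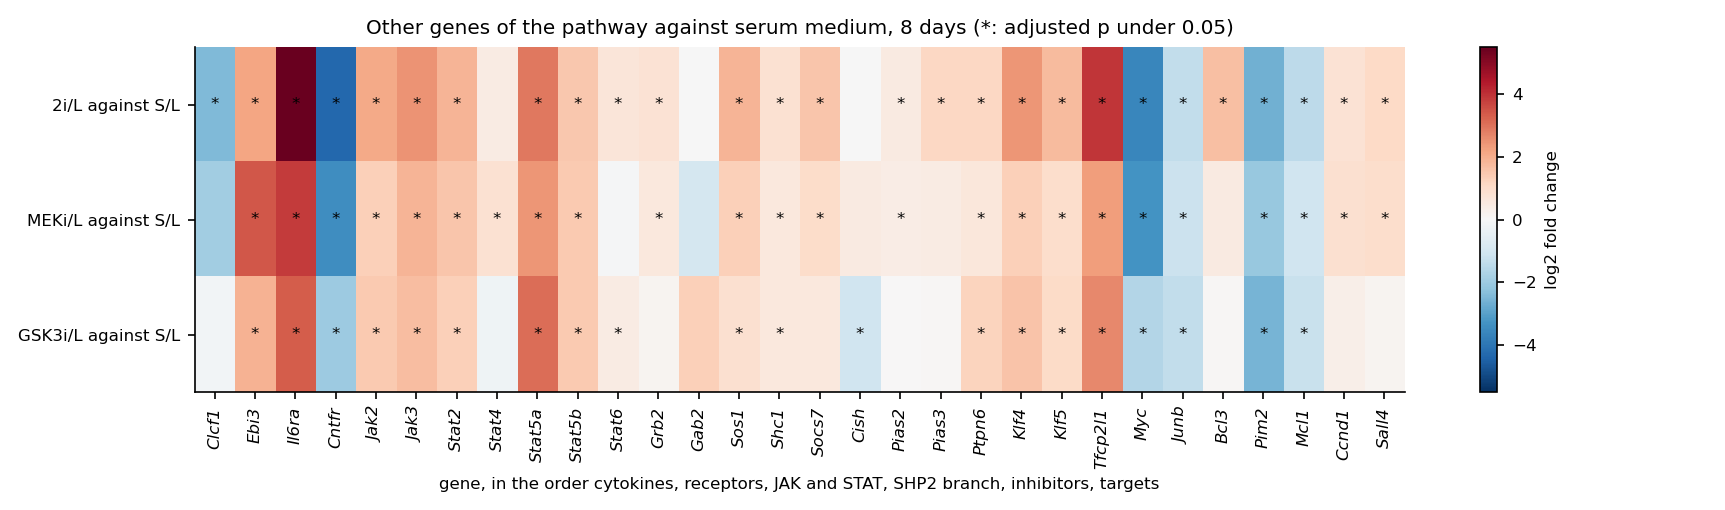
Log2 fold change (colour, red higher and blue lower than in S/L) of 30 other genes of the pathway in 2i/L, MEKi/L and 8-day GSK3i/L (rows), with genes ordered as cytokines, receptors, JAK and STAT genes, adaptors of the SHP2 branch, inhibitors and targets (columns). Stars mark an adjusted p under 0.05. Il6ra is the strongest red at 5.43 in 2i/L, on few S/L reads, and Cntfr the strongest blue at -4.33.

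The other STAT3 targets did not move as a block. Of 14 tested, 6 were higher and 4 lower in 2i/L and in MEKi/L than in S/L, and 3 higher and 4 lower in 8-day GSK3i/L. That is 71.4%, 71.4% and 50.0% of them in 2i/L, MEKi/L and GSK3i/L, beside 63.6%, 40.8% and 31.1% of all genes. With the length score in the fit 3 were higher and 5 lower in 2i/L, 4 and 5 in MEKi/L, and 3 and 8 in GSK3i/L. These are 57.1%, 64.3% and 78.6%, beside 29.3%, 32.7% and 30.3% of all genes. Single targets are given from the fit with group alone. The naive pluripotency factor genes Klf4 and Tfcp2l1 were higher in all 3 media, by 2.42, 1.31 and 1.55 for Klf4 and by 3.94, 2.31 and 2.63 for Tfcp2l1 (2i/L, MEKi/L and GSK3i/L). Myc (-3.59, -3.27 and -1.60), Junb (-1.36, -1.17 and -1.35), Pim2 (-2.65, -2.10 and -2.56) and the survival gene Mcl1 (-1.46, -1.10 and -1.24) were lower in all 3. Pim2 is a paralogue of Pim1, and in 2i/L the pair thus went opposite ways, with Pim2 at 8.87 ± 1.14 RPM in 2i/L against 58.4 ± 24.7 RPM in S/L. Bcl3 was like Pim1 in being higher in 2i/L alone, at 80.1 ± 3.81 RPM in 2i/L, 37.3 ± 13.1 in MEKi/L and 28.8 ± 15.5 in 8-day GSK3i/L, against 25.6 ± 4.94 in S/L, and it passed against each of these 3 (1.16, 1.60 and 1.66).

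Of 13 other inhibitors of the pathway, 7 were higher and none lower in 2i/L than in S/L, 3 higher and 1 lower in MEKi/L, and 2 higher and 1 lower in 8-day GSK3i/L. These shares, 53.8%, 30.8% and 23.1%, lie below the 63.6%, 40.8% and 31.1% of all genes that passed. With the length score in the fit 2 were higher and 0 lower in 2i/L, 0 and 2 in MEKi/L, and 2 and 1 in GSK3i/L. These are 15.4%, 15.4% and 23.1%, beside 29.3%, 32.7% and 30.3% of all genes. Single inhibitors and adaptors are given from the fit with group alone. The phosphatase gene Ptpn6 was higher in all 3 media (1.15, 0.62 and 1.23 in 2i/L, MEKi/L and GSK3i/L). Cish, a SOCS family gene and STAT5 target, was lower in 8-day GSK3i/L than in S/L (-1.08 ± 0.38, adjusted p = 0.043), and it was higher in MEKi/L than in GSK3i/L (1.59 ± 0.38, adjusted p = 0.0084). Pias3, an inhibitor of STAT3, was higher in 2i/L than in S/L (1.16), MEKi/L (0.69) and 8-day GSK3i/L (1.08). Of 6 adaptors of the SHP2 branch, which links gp130 to MEK, 4 were higher in 2i/L, 3 in MEKi/L and 2 in GSK3i/L than in S/L and none lower, with Sos1 at 1.88, 1.32 and 0.86. The shares of adaptors called, 66.7%, 50.0% and 33.3%, were near those of all genes in 2i/L and GSK3i/L (63.6% and 31.1%) and in MEKi/L stood beside 40.8%. With the length score 1 adaptor was higher and 0 lower in 2i/L, 2 and 1 in MEKi/L, and 2 and 0 in GSK3i/L. These are 16.7%, 50% and 33.3%, beside 29.3%, 32.7% and 30.3% of all genes.

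The genes most like each of the 10 across the 14 libraries were found by Pearson's r of log2 values among 11599 genes of at least 1 RPM on average, as a description with no test, since all points share the libraries and their length score. For Osm they included Lass4 (0.981) and Gstm2 (0.977), and for Gbx2 Spred1 (0.959), an inhibitor of RAS-MAPK signalling, Uchl5 (0.947) and Glt1d1 (0.943). For Lif they were Aldh16a1, Rhbdd2 and Unc13b (0.959 to 0.969). For the receptors they included Fanci and Rnf111 for Lifr (0.977 and 0.976) and Ap1g1, Ncstn and Zmym4 for Il6st (0.983 to 0.991). Jak1 ran with Supt5h, Nfatc3 and Rpgrip1 (0.984 to 0.985) and Stat3 with Cdk16, Htt and Cabin1 (0.980 to 0.985). Pim1 ran with Rusc2 (0.963), Fam189a1 and Dsp. The closest genes to the SOCS members were less alike, with Fos at 0.778 for Socs1 and Ccdc45 at 0.895 for Socs3.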

How the data were processed

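Directional libraries of poly(A) RNA (NEBNext Ultra II) were read as 50-base single ends, per the labels. HISAT2, GRCm38, Trim Galore 0.6.5 and, for bisulfite reads, Bismark 0.22.3 stand in the submitters' processing notes. Of the counting options and of the use of strand nothing is given in the sources used here. Log2 RPM of 25965 genes in 14 libraries were deposited. These values show 8 columns of plain log2 RPM (at least 99.96% whole multiples of 1 read, within 0.02 read). In these columns 0 reads were entered as 0.9 read. The other 6 columns (S/L and 8-day GSK3i/L) appear matched to a shared distribution, which the labels do not state. Only 2.42% to 8.89% of their values were whole multiples, and their sorted values above 2 RPM differed by at most 0.079 on the log2 scale. Only 2i/L against MEKi/L and 8-day GSK3i/L against S/L lie within 1 kind of column, and matched columns can hide a global shift.

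Log2 values were fitted with limma 3.58.1 in R 4.3.3 (trend, robust variances, group as the only term, all 14 libraries), for 14980 genes that reached 0.5 RPM in 3 or more libraries, as all 10 genes did. The planned test allowed for counts too, and the one for normalized values was used. A call is a Benjamini-Hochberg adjusted p under 0.05 over all genes tested, with no minimum fold. Log2 fold changes are subtracted group means ± SE. Levels are linear means ± SD with 0 reads as 0. Intervals on reads cover counting error only. The fit was tested on simulated data. The 10 genes, the other lists and the tests were chosen with earlier results of these data known. Named were the 10 genes, other listed genes that passed in at least 3 of 7 comparisons or by at least 2 on the log2 scale in 1, markers, the 3 most similar genes, and neighbours of Osm and Lif, the last chosen after values were seen. Of the genes this rule names, 4 are not reported here; counts over lists include them. Alternatives were a missing filter, log2(RPM + 1), quantile normalization, median centring, no trend, only the groups compared, a replicate block, the length score and each library left out. Leaving out replicate 1 of MEKi/L and of 8-day GSK3i/L together, and the block in MEKi/L against GSK3i/L with only these groups or with the length score, were added after seeing the data. Deviations from group means of same-numbered MEKi/L and 8-day GSK3i/L libraries correlated at 0.67, 0.12 and 0.40, so the numbers were taken to pair these 2 groups, as a hint from the data that the labels do not state.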

Additional observations from a re-analysis of the deposited data

How the results depend on the processing

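Calls of Osm against S/L, of Il6st against S/L and of Gbx2 wherever it passed were kept under every alternative run. Counts over all genes moved more. In 8-day GSK3i/L against S/L 4666 genes passed, and 2678 when only those 2 groups were fitted (2800 to 6748 with 1 library left out and under the main count by more than 1.5 times without GSK3i/L replicate 1 or 2 or S/L replicate 1). In 2i/L against S/L 9521 passed, 18090 with no filter (5971 higher, 12119 lower) and 4391 with the length score. Plain columns enter 0 reads as 0.9 read, and the S/L columns appear matched. The part of either in the unfiltered count was not tested. In 2i/L against MEKi/L 1936 passed, 5505 without replicate 1 of MEKi/L and of GSK3i/L together, and 966 to 3962 with 1 library left out, above 1936 without MEKi/L replicate 1 only (each of the 6 moved it by over 1.5 times). In 2i/L against GSK3i/L 4171 passed, 13127 with no filter (3500 higher, 9627 lower), 6738 without both replicates 1, and 2578 to 5744 with 1 library left out, the lowest without 2i/L replicate 2 or 3. In MEKi/L against GSK3i/L 2670 passed, 4757 with the length score and 1591 with 2 groups. In 24 against 8 days of GSK3i/L 2616 passed, 1194 with the replicate block, 744 with the length score, 149 with 2 groups and 372 to 5885 with 1 library left out (each of the 5 moved it by over 1.5 times), the highest without 8-day replicate 3. Median centring, which gives all libraries the same median over the genes tested, lowered the share of higher calls in the comparisons given next. It fell to 46.3% (from 61.6%) in 2i/L and 50.6% (64.0%) in MEKi/L against S/L, and to 38.3% (52.7%) in 2i/L against MEKi/L. Against GSK3i/L it fell to 37.9% (71.2%) in 2i/L and 50.1% (68.3%) in MEKi/L. Quantile normalization gave 54.7% and 52.9% in this last pair and 38.2% (24.6%) in 24 against 8 days of GSK3i/L. Where an alternative's construction does not show it, the cause was not tested.

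Signs turned for small differences that had not passed, except Jak1 in 2i/L. With the length score these were Socs3 in MEKi/L (-0.06), Jak1 (-0.03) and Socs3 (-0.03) in GSK3i/L and Jak1 in 2i/L (-0.05) against S/L; Lif (-0.07), Lifr (-0.31), Jak1 (-0.14) and Stat3 (-0.02) in 2i/L against MEKi/L; Jak1 (-0.02) and Stat3 (-0.16) in 2i/L and Stat3 (-0.14) and Socs3 (-0.03) in MEKi/L against GSK3i/L; and Stat3 (0.19) in 24 against 8 days of GSK3i/L. Median centring turned Socs3 in MEKi/L against S/L (-0.03), Lifr in 2i/L against MEKi/L (-0.04) and Stat3 (-0.15) and Socs3 (-0.15) in MEKi/L against GSK3i/L. Quantile normalization turned the last 3 of these to -0.04, -0.04 and -0.06. Without both replicates 1, and without GSK3i/L replicate 1 alone, Socs1 (-0.01) and Socs3 (-0.02) turned in GSK3i/L against S/L. Over all libraries left out in turn, the ranges that crossed 0 were -0.01 to 0.46 (Socs1) and -0.02 to 0.20 (Socs3) in GSK3i/L against S/L, -0.20 to 0.22 (Socs1) in 2i/L against S/L, -0.10 to 0.30 (Lifr) in 2i/L against MEKi/L, -0.05 to 0.57 (Jak1), -0.27 to 0.25 (Stat3) and -0.09 to 0.17 (Socs3) in MEKi/L against GSK3i/L, and -0.13 to 0.31 (Lif) in 24 against 8 days of GSK3i/L. Same-numbered libraries deviated together in 8 of 26 pairs (correlation over 0.1, range -0.31 to 0.67), and 7 of 14 libraries correlated best with their own number. The numbers paired MEKi/L with 8-day GSK3i/L and no other compared groups. In that comparison the paired fit of the 2 groups called 3443 genes, the block with the length score 5163 (turning Stat3 to -0.16 and Socs3 to -0.06, and passing Pim1 at 0.37, adjusted p = 0.049), and the paired fit of 2 groups changed, of the 10 genes, the call of Osm alone (0.70, adjusted p = 0.03). The replicate block over all libraries moved the 24-day count as given and turned no call of the 10 genes except Socs3 in 2i/L against GSK3i/L (0.55, adjusted p = 0.045).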

Other observations

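Interleukin 6 and interleukin 11, further ligands of gp130, were barely read in any medium. Il6 averaged 0 RPM in 2i/L, 0.23 ± 0.05 RPM in MEKi/L, 0 RPM in 24-day GSK3i/L and 0.06 ± 0.11 RPM in 8-day GSK3i/L, against 0 RPM in S/L. Il11 averaged at most 0.31 ± 0.13 RPM, in S/L. Osmr, the receptor chain specific for oncostatin M, averaged 0.21 ± 0.22 RPM in 2i/L, 0.06 ± 0.11 in MEKi/L, 0.46 ± 0.65 in 24-day GSK3i/L and 0.78 ± 0.31 in 8-day GSK3i/L, against 0.15 ± 0.18 in S/L, and it passed in none of the 7 comparisons. These 3 genes fall outside the rule for named genes and were chosen after their values were seen.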
